A study of Caenorhabditis elegans with 6 samples.

Results

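The genes described here are 67 collagen genes of Caenorhabditis elegans that were weakly expressed in wild-type animals. They were taken from the 156 genes whose WormBase symbol is col- followed by a number. A gene was kept where its level, as counts per 1e+06 counts of the library (CPM), averaged from 0.2 to below 50 over the 3 wild-type libraries. Of the other col genes, 37 lay at or above 50 CPM and 52 lay below 0.2 CPM. The members were thus chosen by their measured WT levels, which are also the denominator of every fold change below.

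RNA-seq counts came from whole animals labelled as the L4 larval stage. The nmr-2(ok3324) group carries a deletion allele of nmr-2, which encodes a subunit of an NMDA-type glutamate receptor, and the WT group is the N2 strain, with 3 libraries in each group. All animals were grown at 20 °C on plates with the OP50 strain of Escherichia coli, and no driver, transgene or drug is named. The question was how transcript levels in the receptor mutant differ from those in WT.

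Cuticle collagens build the exoskeleton of the worm. The epidermis secretes a set of them at every molt, and they are trimmed, hydroxylated, cross-linked and assembled into furrows, annuli and, in adults, struts. Many of these genes are switched on and off within each larval stage, in waves that are tied to the molting clock, and some belong mainly to 1 stage. The Dpy, Rol, Sqt and Bli collagens are named for the body shapes of their mutants, whereas most col genes carry only a number and have no role assigned to them singly.

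Totals ran from 21234748 to 27893186 counts in nmr-2(ok3324) libraries and from 23070856 to 25202816 in WT libraries, so that 3 counts correspond to 0.108 to 0.141 CPM. TMM scaling factors stood apart in the libraries numbered 2, with 1.20 for the nmr-2(ok3324) library and 0.839 for the WT library, against 0.987 to 1.01 in the others. Levels below are TMM-scaled CPM ("scaled CPM") unless library totals are named. The deleted gene does not check the labels: nmr-2 had 3, 5 and 5 counts in nmr-2(ok3324) libraries, against 7, 2 and 10 in WT libraries (ratio 0.618, 95% exact interval 0.281 to 1.32, counting error only). The stage label was checked against col-19, known as an adult collagen, which stood at 2074 ± 309 scaled CPM in nmr-2(ok3324) and 2107 ± 283 in WT (SD, n = 3 each). Both groups thus held a transcript of the adult stage, and how far either had passed L4 was not tested.

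Most of the weakly expressed col genes were higher in nmr-2(ok3324) animals. Of the 67 genes, 63 passed the low-count filter, which asked for about 0.4195 CPM in at least 3 libraries, and 39 of them rose in nmr-2(ok3324), 37 of these by 2-fold or more (edgeR quasi-likelihood F test, adjusted p under 0.05 over 13137 genes). Of all 13137 genes tested, 1.8% rose (1.39% by 2-fold or more) and 0.373% fell; among the 10167 tested genes in the same WT window, 2.1% rose and 0.374% fell. No member fell by edgeR, DESeq2 or limma-voom, and 0 were lower at an unadjusted p under 0.05 with edgeR, while 49 of the 63 had an unadjusted p under 0.05 in all, as did 17.2% of all genes tested. DESeq2 called 39 members higher (over all genes 1.95% rose and 0.747% fell) and limma-voom 38 (1.66% and 0.304%). In whole animals, a different number of cells of a type and a different amount of RNA per cell cannot be told apart.

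The median log2 fold change of the 63 tested members was 1.44, or 2.72-fold, with a range of -0.75 to 3.30, against 0.03 over all genes tested. The fitted change was positive for 56 and negative for 7. In 46 of the 67 genes every nmr-2(ok3324) library lay above every WT library, in 1 (col-158) every nmr-2(ok3324) library lay below, and in 20 the groups overlapped. Over all tested genes, 13.4% had groups separated upward and 11% downward. Of the 46 separated genes, 7 did not pass the test.

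A low-count filter can be passed through the higher group alone, and this touched few members. The filter level was exceeded in all 3 WT libraries by 55 members, of which 36 rose, with a median of 1.44. Of the 8 other tested members, 6 exceeded it in all nmr-2(ok3324) libraries, and 3 of the 8 rose. To see what the choice on WT levels does, the window was set on WT replicate 1, 2 or 3 alone and the fold taken from a fit without that library. Of the tested genes in these windows, 36 of 64, 41 of 60 and 33 of 62 rose, where 1.3%, 1.48% and 1.12% of all genes did. The medians were 1.64, 1.54 and 1.31. With the window set on the nmr-2(ok3324) mean in place of the WT mean, 31 of 54 tested genes rose and the median was 1.40.

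**Figure D1:**
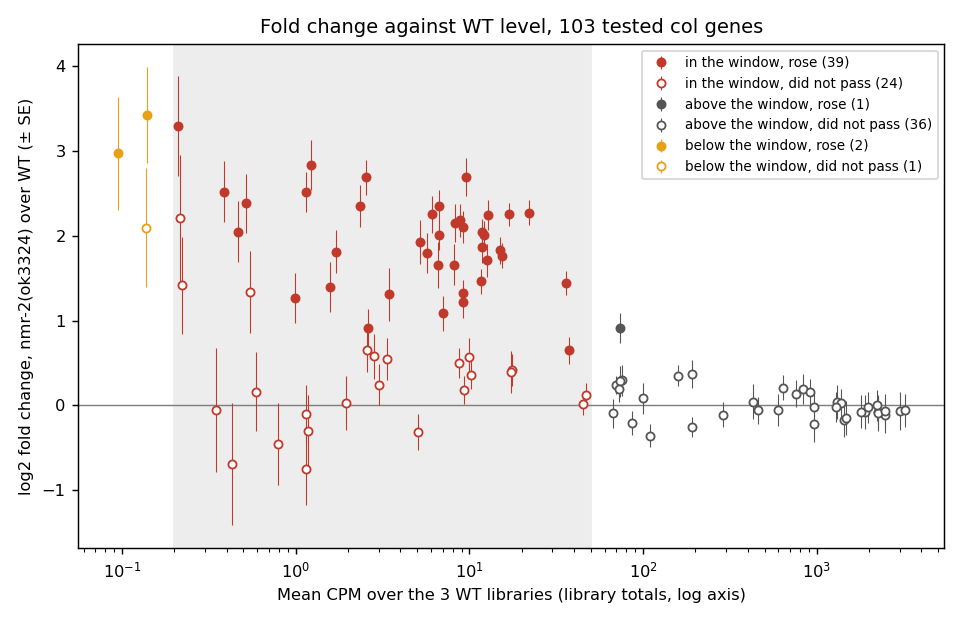
Log2 fold change (nmr-2(ok3324) over WT, ± SE) of the 103 tested col genes against their mean CPM by library totals over the 3 WT libraries (log axis). Filled points rose by edgeR. Inside the shaded window of 0.2 to 50 CPM 39 of 63 tested genes rose, and to its right 1 of 37 did.

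Along the window the counts were as follows; differences between the ranges were not tested, and the SEs are larger at low levels. Between 0.2 and 1 CPM, 5 of 12 tested members rose, with a median log2 fold change of 1.38. Of these 12, only 4 exceeded the filter level in all WT libraries and 6 passed it through nmr-2(ok3324) alone, so this share and median rest in part on genes admitted for being high. Between 1 and 5 CPM, 8 of 16 rose, with a median of 0.78. Between 5 and 20 CPM 23 of 30 rose, with a median of 1.78, and between 20 and 50 CPM 3 of 5 rose with a median of 0.65. Over all tested genes in the same 4 ranges of WT level, 2.63%, 2.07%, 2.73% and 0.887% rose, with medians of 0.37, 0.20, 0.06 and -0.02. The col genes at or above 50 CPM, which hold most of the collagen RNA, had a median of -0.02: of 37 tested, 1 rose and 0 fell by edgeR (6 of 37 had an unadjusted p under 0.05, 2 of them lower, a share close to the 17.2% of all genes), and neither DESeq2 nor limma-voom called any lower. The 1 was col-125, at 149 ± 27.9 scaled CPM in nmr-2(ok3324) and 78.9 ± 22.4 in WT (SD, n = 3 each; log2 fold change 0.92, SE 0.18, edgeR adjusted p = 0.0093).

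Summed over all 67 genes and by library totals, the members took 1784, 1650 and 1420.5 CPM in the nmr-2(ok3324) libraries, against 629, 510.3 and 456 CPM in the WT libraries. The groups did not overlap, and the means of 1618 ± 184 and 532 ± 88.2 CPM (SD, n = 3 each) differ 3.04-fold. With TMM scaling the sums averaged 1525 ± 209 CPM in nmr-2(ok3324) and 565 ± 89.0 CPM in WT, a ratio of 2.70; without both libraries numbered 2 the ratio was 2.95 by library totals and 2.94 by TMM. Split by the call itself, which fixes the order of the ratios, the 39 risen genes summed to 1286 ± 181 scaled CPM in nmr-2(ok3324) and 361 ± 68.5 in WT. The other 28 summed to 239 ± 27.3 scaled CPM in nmr-2(ok3324) and 204 ± 27.7 in WT, a ratio of 1.17 that was 1.33 by library totals and 1.31 without both libraries numbered 2.

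The sums of the abundant col genes overlapped between the genotypes over all 6 libraries. Their 37 levels summed to 42312 ± 3549 CPM in nmr-2(ok3324) and 38501 ± 3109 CPM in WT by library totals (ratio 1.10), and to 40118 ± 6649 and 41170 ± 6718 CPM with TMM scaling (ratio 0.974), so that the direction turns with the scaling. This rests on the libraries numbered 2: without them the ratio was 1.17 on both scales, and with TMM scaling the sums were 45622 and 42003 CPM in nmr-2(ok3324), against 39529 and 35424 CPM in WT, which do not overlap. As a share of all col RNA the weakly expressed genes took 3.72%, 4.04% and 3.30% in the nmr-2(ok3324) libraries, against 1.55%, 1.24% and 1.29% in the WT libraries. That share does not depend on the scaling of the libraries, and its groups did not overlap.

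**Figure D2:**
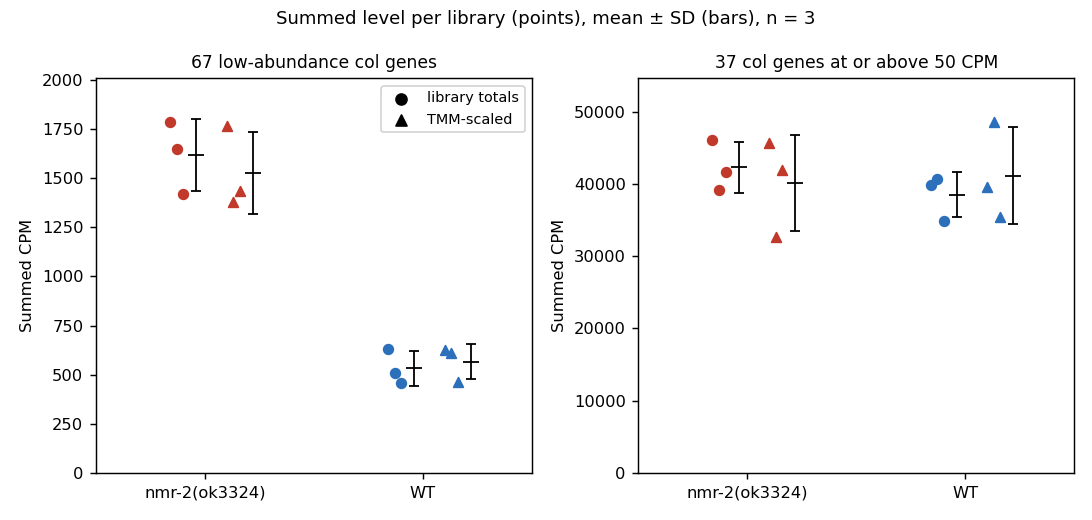
Summed CPM per library (points) with mean ± SD (bars, n = 3) of the 67 weakly expressed col genes (left) and the 37 col genes at or above 50 CPM (right), by library totals (circles) and with TMM scaling (triangles). On the left every nmr-2(ok3324) library lies above every WT library on both scales; on the right the groups overlap, and the order of the means turns between the scales, which it does not without the libraries numbered 2.

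The 12 members with the smallest p-values had log2 fold changes of 1.77 to 2.69. The first was col-138 (WBGene00000711, chromosome IV, 17182884 to 17183729, minus strand in WBcel235), a single-exon gene within an intron of C52D10.3. It had 99.997, 72.5 and 83.3 scaled CPM in the nmr-2(ok3324) libraries, against 20.2, 16.7 and 16.7 in the WT libraries (log2 fold change 2.26, SE 0.14, edgeR adjusted p = 2.6e-07). The lowest mutant library thus lay well above the highest WT library. Its host C52D10.3, on the opposite strand, had a log2 fold change of -0.17 (SE 0.14, adjusted p = 0.54).

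The gene col-77 (chromosome II, 8358228 to 8359381, minus strand) is the most abundant of these 12 and had 130.5, 104 and 105 scaled CPM in nmr-2(ok3324), against 27.6, 24.6 and 18.1 in WT (2.27, SE 0.15, adjusted p = 2.8e-07). For col-65, on chromosome I, the values were 19.2, 15.9 and 16.8 scaled CPM in nmr-2(ok3324), against 3.57, 2.42 and 2.05 in WT (2.69, SE 0.21, adjusted p = 1.4e-06). In both genes the 3 libraries of a genotype lay close together relative to the gap between genotypes.

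On chromosome IV, col-120 (9260610 to 9261787, minus strand), which is known from RNA interference to be needed for the long life of daf-2 mutants, had 40.9, 32.3 and 35.2 scaled CPM in nmr-2(ok3324), against 9.12, 7.07 and 4.99 in WT (2.36, SE 0.18, adjusted p = 1.5e-06). The level of col-88 was 76.2, 54.2 and 67.9 scaled CPM in nmr-2(ok3324), against 12.3, 12.6 and 5.83 in WT (2.69, SE 0.22, adjusted p = 2.4e-06). Here WT replicate 3 was the low one. Without both libraries numbered 2, col-88 stood at 3.00 (adjusted p = 0.10) and col-104 at 2.19 (adjusted p = 0.073), so that neither passed. Both changes were larger there than with all 6 libraries (2.69 and 2.10). In that fit 2.61% of all genes rose and 1.4% fell, against 1.8% and 0.373% with all 6 libraries.

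Of the remaining genes of these 12, col-107 averaged 64.4 ± 14.6 scaled CPM in nmr-2(ok3324) and 13.6 ± 2.98 in WT (log2 fold change 2.25), and col-71 51.3 ± 8.23 and 12.7 ± 2.96 (2.01). The gene col-38 averaged 55.5 ± 10.3 in nmr-2(ok3324) and 16.3 ± 2.40 in WT (1.77), col-130 28.4 ± 2.05 and 7.10 ± 1.83 (2.01), col-162 56.2 ± 3.45 and 15.8 ± 4.27 (1.83), and col-104 41.7 ± 9.66 and 9.72 ± 2.36 (2.10; SD, n = 3 in each group). All 6 had edgeR adjusted p-values of 1.6e-06 to 5e-06, and in each the groups did not overlap.

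**Figure D3:**
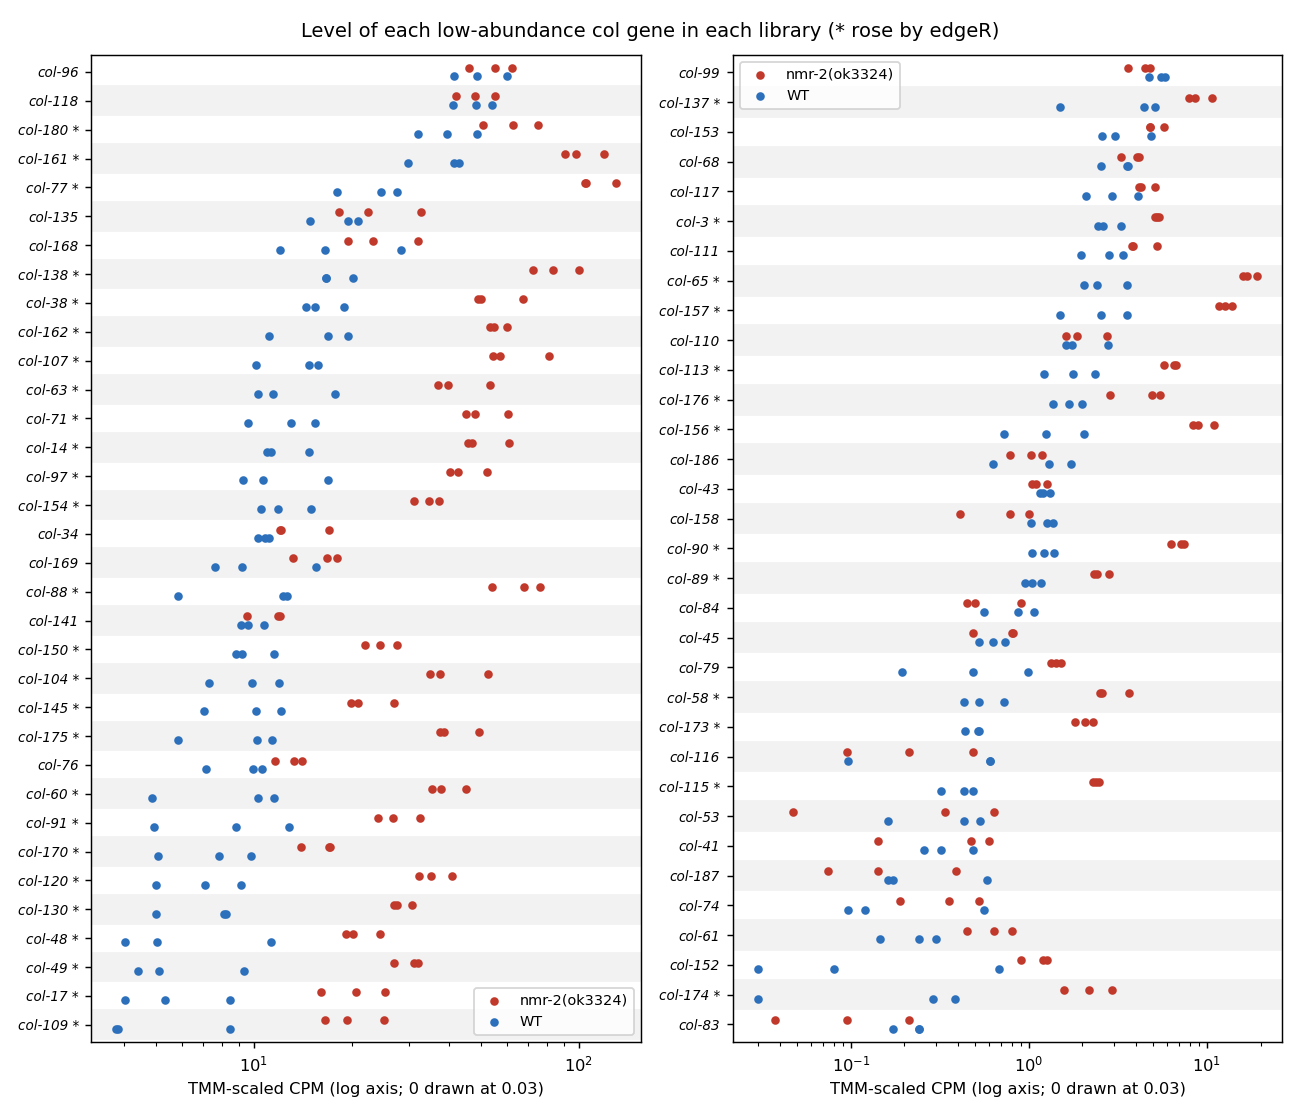
TMM-scaled CPM of each of the 67 genes in each library (log axis; a 0 is drawn at 0.03), ordered by WT mean from top left to bottom right, with nmr-2(ok3324) above WT in each row. An asterisk marks a gene that rose by edgeR. In the 39 marked rows the nmr-2(ok3324) points lie to the right of all WT points, as for col-138 at 72.5 or more against 20.2 or less.

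The list of collagens studied for their stage of expression holds 2 members. The gene col-14 (chromosome IV, 7753408 to 7754656, plus strand) had 60.9, 46.8 and 45.5 scaled CPM in nmr-2(ok3324), against 14.8, 11.3 and 10.98 in WT (2.05, SE 0.15, adjusted p = 1e-06). The larval collagen gene col-17 (chromosome II, 4866436 to 4867576, minus strand), which the transcription factor LIN-29 represses at the switch to the adult, had 25.3, 16.1 and 20.7 scaled CPM in nmr-2(ok3324), against 8.43, 4.02 and 5.35 in WT (1.80, SE 0.23, adjusted p = 0.00023). Both rose with non-overlapping groups. Of the other 6 tested genes in the list of stage collagens none passed by edgeR, DESeq2 or limma-voom, and 1, col-7, had an unadjusted p under 0.05. Among them the adult genes col-7 and col-19 had log2 fold changes of -0.36 (SE 0.13, adjusted p = 0.20) and -0.02 (SE 0.19), and bli-1 and bli-2, which encode collagens of the adult struts, 0.39 (SE 0.36) and 0.54 (SE 0.39). The dauer collagen gene col-2 and col-10 had counts near 0, and col-40 had 10, 3 and 4 counts in nmr-2(ok3324), against 1, 0 and 1 in WT, separated but under the filter and not tested. The gene col-13 was listed at 0 in all 6 libraries. The genes col-12 and col-13 are nearly identical copies, and how reads shared between copies were counted is not given in the sources used here; col-12 stood at 0.29 (SE 0.18).

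Between 5 and 20 CPM in WT, 12 further members rose beside those already named: col-48, col-49, col-60, col-63, col-91, col-97, col-109, col-145, col-150, col-154, col-170 and col-175. Over the 23 risen members of this range the log2 fold change ran from 1.09 to 2.69. Those that did not pass were col-34, col-76, col-99, col-135, col-141, col-168 and col-169, from -0.32 to 0.58. No tested member in this range lay between 0.58 and 1.09.

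Fewer of the rarer members passed, with larger errors. In the range of 1 to 5 CPM, col-3, col-65, col-90, col-113, col-137, col-156, col-157 and col-176 rose by 0.91 to 2.84 on the log2 scale, whereas col-43, col-68, col-110, col-111, col-117, col-153, col-158 and col-186 lay between -0.75 and 0.66 and did not pass. The greatest of these rises was that of col-156, at 10.95, 8.36 and 8.93 scaled CPM in nmr-2(ok3324), against 1.25, 2.04 and 0.724 in WT (2.84, SE 0.29, adjusted p = 2.2e-05; named after its values were seen). Below 1 CPM, col-58, col-89, col-115, col-173 and col-174 rose by 1.27 to 3.30, with SEs of 0.30 to 0.59. Of these, col-115, col-173 and col-174 exceeded the filter level in all nmr-2(ok3324) libraries but in only 1, 2 and 0 WT libraries. They were thus tested because they were high in nmr-2(ok3324).

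At the lower edge of the window the counts were small. The gene col-174 had 61, 42 and 62 counts in nmr-2(ok3324), against 9, 6 and 0 in WT, which is 2.16, 1.57 and 2.94 scaled CPM against 0.387, 0.291 and 0 (log2 fold change 3.30, SE 0.59, adjusted p = 0.0055). All mutant libraries lay above all WT libraries, and col-174 passed the filter through the mutant libraries alone. The counts of col-152 were 34, 34 and 19 in nmr-2(ok3324), against 0, 14 and 2 in WT (2.21, SE 0.75, adjusted p = 0.16). It exceeded the filter level in all nmr-2(ok3324) libraries but in only 1 WT library, so it too was tested for being high in nmr-2(ok3324). Without WT replicate 2 the log2 fold change of col-152 was 4.60 (edgeR adjusted p = 0.0022). That leaves WT counts of 0 and 2, so this fit gives no support of its own. The members closest inside the lower edge were col-83, col-174 and col-152, at 0.205, 0.211 and 0.216 CPM by library totals in WT, and closest outside were col-163, col-87 and col-177, at 0.162, 0.175 and 0.178.

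At the upper edge, col-180 (chromosome X) had 74.9, 50.7 and 62.6 scaled CPM in nmr-2(ok3324), against 39.2, 48.8 and 32.1 in WT (0.65, SE 0.16, adjusted p = 0.044). Its groups came close, and the call was lost without any 1 library other than those numbered 2. For col-96 the values were 62.4, 45.9 and 55.4 scaled CPM in nmr-2(ok3324), against 48.8, 60.1 and 41.2 in WT (0.13, SE 0.14, adjusted p = 0.66). The level of col-118 was 55.4, 41.9 and 47.8 in nmr-2(ok3324), against 48.2, 54.3 and 41.0 in WT (0.02, SE 0.13, adjusted p = 0.96). The groups overlapped for col-96 and col-118, and the fitted direction of both turned in some of the alternative fits. The 3 members closest inside this edge had 37.4 (col-180), 44.8 (col-118) and 46.8 CPM (col-96) by library totals in WT, and the 3 closest outside had 66.8 (col-95), 69.5 (col-155) and 72.4 CPM (col-146).

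The lowest fold changes belonged to 6 genes that did not pass. The only member whose groups were separated downward was col-158, at 0.780, 0.411 and 0.997 scaled CPM in nmr-2(ok3324), against 1.03, 1.26 and 1.37 in WT (-0.75, SE 0.43, adjusted p = 0.36). The next were col-116 (-0.69, SE 0.72) and col-84 (-0.46, SE 0.48), then col-186 (-0.30, SE 0.42) and col-43 (-0.10, SE 0.35), the last 2 with signs that turned in 1 alternative each. The gene col-99 stands apart in kind: it encodes a transmembrane collagen with a role in axon guidance, not a protein of the cuticle, and has 17 exons and the longest coding sequence of the 67, at 2205 bases. Its levels were 4.79, 4.48 and 3.61 scaled CPM in nmr-2(ok3324), against 5.55, 5.81 and 4.75 in WT (-0.32, SE 0.21, adjusted p = 0.43), and the groups overlapped.

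The 4 members that failed the filter were not tested. The gene col-41 had 4, 16 and 10 counts in nmr-2(ok3324), against 6, 10 and 8 in WT (ratio of the summed counts per TMM-scaled total 1.13, 95% exact interval 0.639 to 2.02), and col-74 had 10, 14 and 4, against 13, 2 and 3 (1.41, 0.751 to 2.70). The counts of col-83 were 6, 1 and 2 in nmr-2(ok3324), against 4, 5 and 6 in WT (0.542, 0.209 to 1.32), and those of col-187 were 11, 2 and 3, against 4, 12 and 4 (0.723, 0.350 to 1.47). All 4 intervals include 1, so a difference was not detectable at this depth.

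The libraries of a genotype also differed among themselves. For the 45 members with at least 30 counts in every library, the highest library exceeded the lowest 1.33-fold in nmr-2(ok3324) and 1.72-fold in WT at the median, and up to 3.44-fold in WT, for col-137. For the 37 abundant col genes the same ratios were 1.38 and 1.43. In WT, replicate 1 was highest for 24 of the 45 genes, replicate 2 for 18 and replicate 3 for 3, and replicate 3 was lowest for 33. The abundant col genes were split otherwise, with WT replicate 2 highest and replicate 3 lowest for all 37; by library totals replicate 1 was highest for 31 of the 45 members and for 16 of the 37. Of the 24 members highest in WT replicate 1, 20 rose, of the 18 highest in WT replicate 2, 11 rose, and the 3 highest in WT replicate 3 were col-68, col-135 and col-153, none of which passed. The groups behind these counts were formed from the data, and the difference between them was not tested.

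**Figure D4:**
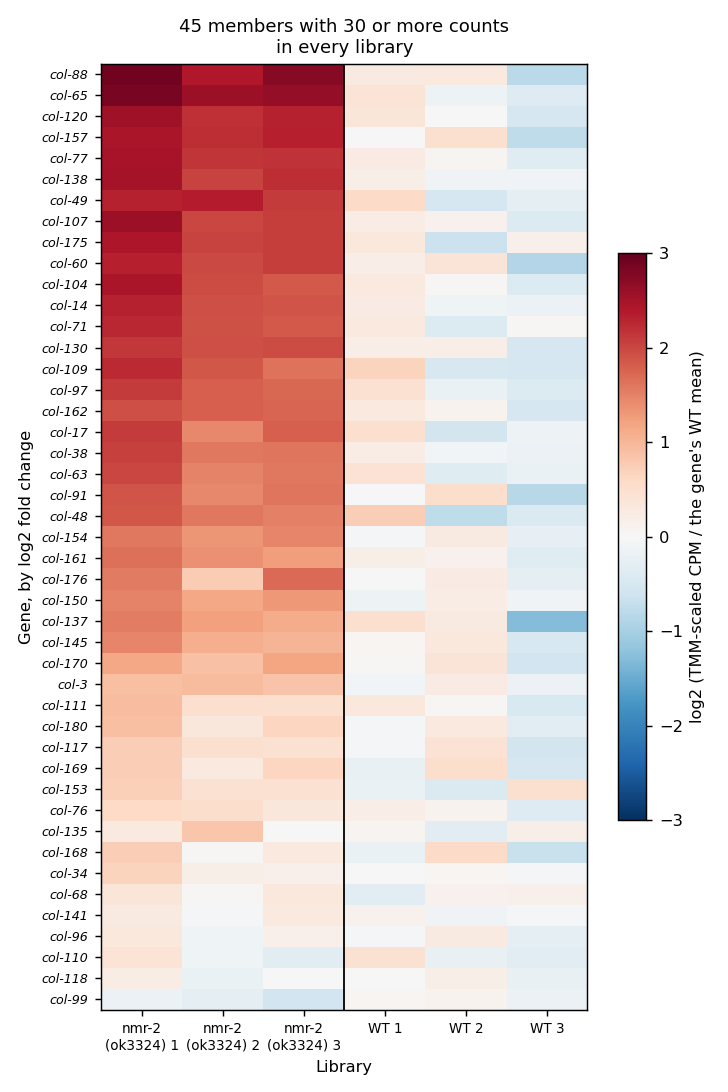
Log2 ratio of the TMM-scaled CPM in each library to the gene's WT mean for the 45 members with 30 or more counts in every library, ordered by fold change, with nmr-2(ok3324) on the left and WT on the right. The upper rows are high in all 3 nmr-2(ok3324) libraries, and WT replicate 3 is the lowest WT library for 33 genes.

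The risen genes were spread over the genome. Of the 67 members, 9, 10, 6, 19, 12 and 11 lay on chromosomes I, II, III, IV, V and X, and 6, 4, 5, 11, 7 and 6 of these rose. The genes are short, with a median coding length of 903 bases, 897 for the 39 risen and 930 for the 24 that were tested and did not pass. Of the 39 risen genes, 4 have 1 exon and 21 have 2 exons, against 2 and 6 of the 24. Per kilobase of exon, the median level of the 67 genes was 11.7 scaled CPM in nmr-2(ok3324) and 4.68 in WT, and that of the 37 abundant col genes was 855 in nmr-2(ok3324) and 776 in WT.

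Several members lie beside another col gene, and neighbours did not always share a call. The pair col-149 and col-150 sits 693 bases apart on the same strand of chromosome V: col-150 rose (log2 fold change 1.33, SE 0.15), whereas the abundant col-149 averaged 171 ± 15.5 scaled CPM in nmr-2(ok3324) and 205 ± 20.7 in WT (-0.26, SE 0.12) and did not pass. On chromosome II, 2093 bases separate col-17, which rose, from col-20, which stood at -0.06 and did not pass, and on chromosome V 2322 bases separate col-154 (1.46, rose) from col-155 (0.24, did not pass). A tandem run on chromosome X of 3 single-exon members, 6326388 to 6332611 on the plus strand, had log2 fold changes of 0.40 for col-168, 0.58 for col-169 and 1.09 for col-170, of which the last alone passed (adjusted p = 0.0080). The difference between neighbours was not tested, and these pairs were chosen after their values were seen.

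Counts on opposite strands cannot be told apart where the counting strand is not given. The exons of 16 members overlap exons of another gene. Of these, 14 were tested and 7 rose, with a median of 0.96; of the 51 members without such overlap, 49 were tested and 32 rose, with a median of 1.46. The difference between these sets was not tested. The overlaps run from 2 bases (col-53) to 508 (col-116), and those of col-83 and col-116 are on the same strand. For col-71, col-84, col-89, col-97 and col-116 the other gene had 0 or 1 counts. How reads that fall on both genes were counted is not given, so these counts do not show how many reads were shared. A further arrangement is an intron of a protein-coding gene on the opposite strand, which holds 9 members (col-14, col-41, col-48, col-79, col-84, col-91, col-107, col-130 and col-138). Of the 9 members, 6 rose, and of their 8 tested hosts 0 were called by any of the 3 tools (edgeR, DESeq2, limma-voom), with 0 at an unadjusted p under 0.05.

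Genes that act around cuticle collagens were read from lists. The furrow collagens dpy-2, dpy-8, dpy-9 and dpy-10 were tested, with a median of 0.31; 0 were called by any of the 3 tools, with 0 at an unadjusted p under 0.05, and dpy-3 and dpy-7 failed the filter. Of 13 tested collagens of body shape outside the furrows, 6 rose, 1 fell and 6 did not pass, with a median of 1.15; DESeq2 and limma-voom called 9 each, and 11 had an unadjusted p under 0.05. The risen ones were dpy-5, at 56.8 ± 8.57 scaled CPM in nmr-2(ok3324) and 14.7 ± 2.96 in WT (SD, n = 3 each; 1.95, SE 0.15, edgeR adjusted p = 1.5e-06), dpy-13 (1.88), dpy-4 (1.82), sqt-1 (1.26), lon-3 (1.20) and sqt-3 (0.98). These 6 had WT means of 2.13 to 17.5 scaled CPM, which lies within the window used for the col genes. The window does not set them apart: the other tested body shape collagens had WT means of 0.851 (dpy-14) to 4.60 scaled CPM (dpy-17). The tested furrow collagens, of which none rose, had 0.768 (dpy-8) to 1.47 (dpy-9). The 1 that fell was dpy-14, with 0, 2 and 1 counts in nmr-2(ok3324), against 20, 20 and 18 in WT (-4.25, SE 0.76, adjusted p = 0.0050). It passed the filter through the WT libraries alone and was thus tested because it was high in WT. Of the collagens outside the cuticle, emb-9 and let-2, the type IV collagens of basement membranes, stood at 0.28 (SE 0.14) and 0.35 (SE 0.15), and 0 of 4 were called by any of the 3 tools, with 1 at an unadjusted p under 0.05.

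Few genes for collagen synthesis and control passed. Of 15 tested genes that modify, process or cross-link collagens, 1 rose, by edgeR, DESeq2 and limma-voom alike: mlt-7, which encodes a peroxidase, with 16.1, 26.0 and 18.04 scaled CPM in nmr-2(ok3324), against 10.4, 9.498 and 12.4 in WT (0.89, SE 0.18, adjusted p = 0.014). The prolyl 4-hydroxylase genes dpy-18 and phy-2 stood at 0.08 and 0.16, the proprotein convertase gene bli-4 at 0.06, and pdi-1, for a protein disulfide isomerase, at -0.33 (SE 0.17), and the list's median was 0.08. Of 15 transcription and timing regulators of the cuticle and the molt, 0 were called by any of the 3 tools, and 2 of 15 reached an unadjusted p under 0.05, no greater a share than the 17.2% of all genes: lin-42, the worm's period homologue (0.46, SE 0.20), and lin-41 (-0.32, SE 0.14). In the BMP pathway, in which the ligand DBL-1 sets body size and cuticle collagen genes are among the known targets, 0 of 12 genes were called by any of the 3 tools, 1 had an unadjusted p under 0.05 (crm-1, 0.42, SE 0.15), dbl-1 stood at -0.17 (SE 0.28), and the median was 0.06. Of 18 molting genes, mlt-8 rose, at 9.05 ± 0.65 scaled CPM in nmr-2(ok3324) and 3.79 ± 1.51 in WT (1.25, SE 0.24, adjusted p = 0.0099), noah-1 stood at -0.93 (SE 0.25, adjusted p = 0.076), 6 of 18 had an unadjusted p under 0.05 (17.2% of all genes), and the median was 0.18. Among those 6, noah-1 alone was lower, and beside mlt-8 the higher ones were nas-36 (1.67, SE 0.55), qua-1 (1.54, SE 0.45), mlt-10 (0.56, SE 0.24) and lrp-1 (0.46, SE 0.20). In WT replicate 2, nas-36 and qua-1 had 2 and 6 counts, under the filter level that all nmr-2(ok3324) libraries exceeded. DESeq2 called 2 of the 18 molting genes and limma-voom 1, and without both libraries numbered 2 edgeR called 1 higher and 1 lower.

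**Figure D5:**
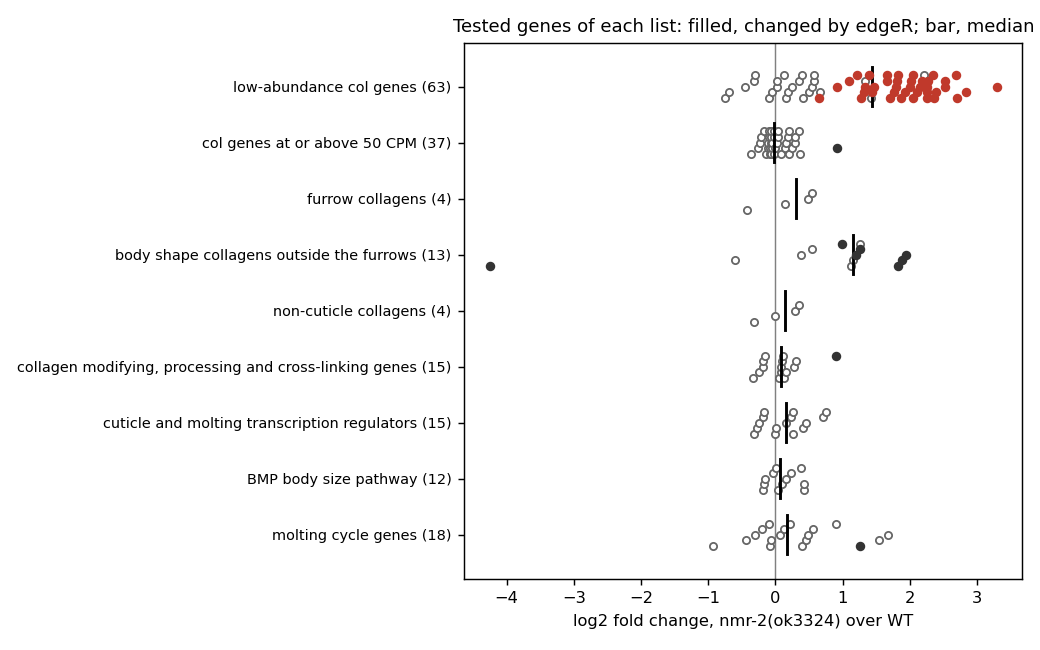
Log2 fold change (nmr-2(ok3324) over WT) of every tested gene of the weakly expressed and abundant col genes and of 7 lists of related genes, with the number tested in brackets. Filled points passed the edgeR test and bars are medians: 1.44 for the 63 members, 1.15 for the 13 body shape collagens, and between -0.02 and 0.31 for the others.

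Tissue markers were read beside these results. Of 31 markers, 28 were tested, 0 were called by edgeR or limma-voom and 1 by DESeq2 (a sperm gene), 10 of 28 had an unadjusted p under 0.05 (17.2% of all genes), and no marker was at 0 in all libraries. The 5 epidermal markers, of the tissue that makes the cuticle, summed to 76.3 to 90.8 scaled CPM in nmr-2(ok3324) and 82.1 to 92.7 in WT, and the 3 seam cell markers to 20.8 to 25.4 and 22.0 to 24.0, so these groups overlapped. Only 3 of the epidermal and 2 of the seam markers passed the filter, and the epidermal marker dpy-7 had 5 to 11 counts per library. Weak markers thus add little to these sums. The 3 oocyte markers summed to 1711 to 2385 in nmr-2(ok3324) and 2463 to 3049 in WT, the 3 germline markers to 1260 to 1360 and 1474 to 1483, and the 4 neuronal markers to 143 to 154 and 162 to 170, all 3 without overlap. The 3 sperm markers, at 8.26 to 12.95 in nmr-2(ok3324) and 4.42 to 5.98 in WT, and the 3 pharyngeal muscle markers, at 79.1 to 98.7 and 59.3 to 73.6, were separated the other way. For single genes, 13.4% of all tested were separated upward and 11% downward. Body wall muscle and intestine overlapped. The part of any of these tissues in the rise of the col genes was not tested.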

How the data were processed

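The authors deposited 1 table of whole-number counts per gene for each of 6 libraries, not normalized. HTSeq and DESeq2 are named, without versions, per the submitters' processing notes. Aligner, build, annotation and strand setting: not given in the sources used here. Of 46911 identifiers, 44059 were paired with a symbol; coordinates come from Ensembl release 115 (WBcel235), with 46863 of them.

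The members, gene lists and tests were chosen with earlier results of these data known. Counts of all genes were fitted in R 4.3.3 with edgeR 4.0.16 (filterByExpr with a minimum count of 10, TMM, robust quasi-likelihood F test, Benjamini-Hochberg over 13137 genes), and the members' values were read from that fit. The SE is the absolute log2 fold change divided by the square root of F. The step was tested on simulated data. The labels do not say whether the 3 libraries per genotype are separate cultures. The p-values then measure only the spread between libraries, and that spread may be technical. Intervals of count ratios cover counting error only.

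Named members are the 12 with the smallest p, the 6 with the lowest log2 fold change, the 3 on each side of each edge of the window, those that failed the filter, and those with a known stage; of each list, up to 2 genes with the smallest p, and others were named after their values were seen. Genes most like col-138 across libraries are not given, because the libraries fall into the 2 genotypes. Sequences are not printed and copies of near-identical protein were not identified, since no sequence was used here. Alternatives were DESeq2 1.42.0, limma-voom (limma 3.58.1), RLE size factors, library totals, 2 other filters, a replicate block, leaving out libraries, and other windows. Figures were drawn with matplotlib 3.10.9.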

Additional observations from a re-analysis of the deposited data

How the results depend on the processing

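The number of risen members was 39, and 36 to 41 with DESeq2 (39), limma-voom (38), RLE size factors (36), library totals (37), no low-count filter (41) or a filter of 1 CPM in 3 libraries (39), 35 without both libraries numbered 2 (31 of them among the 39), and 31 to 41 with other windows; 0 members fell in each of the 14 alternative fits, in which 0.944% to 2.61% of all genes rose. It was 33 to 41 with single libraries left out, the median log2 fold change 1.28 to 1.64 and the ratio of summed CPM 2.84 to 3.35. In all, 25 of the 39 rose in every fit, and 34 with every single library left out; col-89 lost its call in each of these fits, col-3 in each except that without WT replicate 2, col-176 and col-180 without replicate 1 or 3 of either genotype, and col-137 without nmr-2(ok3324) replicate 1 or 2 or WT replicate 3. The median of 1.44 became 1.66 with the filter of 1 CPM and 1.65 with the window on the mean of all 6 libraries, where fewer rare genes were tested or other genes chosen. With library totals it was 1.62, but there the median of all genes shifted to 0.20, so that relative to all genes it was 1.42 on both scales. The ratio of sums, 3.04, was 2.13 with a window of 0.1 to 100 CPM, which adds genes of higher level, and 2.70 with TMM scaling. With the replicate block 32 members rose and the median was 1.47; col-174 (3.33, adjusted p = 0.064) and col-180 (0.65, adjusted p = 0.23) were among those lost. Same-numbered libraries deviated with correlations of 0.00, -0.28 and -0.10. The labels do not say whether they share more than a number, and these correlations cannot decide it. Signs turned for col-43 (0.082 with library totals) and col-118 (-0.015 with DESeq2, -0.012 with RLE), and with single libraries left out for col-186 (-0.61 to 0.028), col-96 (-0.0085 to 0.27) and col-118 (-0.094 to 0.11), through WT replicate 3 and, for col-118, also nmr-2(ok3324) replicate 1; the cause was not tested. Without both libraries numbered 2, col-96 passed (0.39, adjusted p = 0.016), and col-152 passed there (4.52) and with no filter (2.20). Without those libraries, col-152 had WT counts of only 0 and 2. Leaving out members with a near-identical copy was not run. At these depths 3 counts are 0.108 to 0.141 CPM, which limits the members near 0.2 CPM.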
